A study of Danio rerio with 18 samples.

Results

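The zebrafish genes of the Hox clusters were examined on 18 arrays of lateral line primordium RNA. A gene was a member when the probe-to-gene table gave its probe set a single symbol made of hoxa, hoxb, hoxc or hoxd and a digit. A gene with several such probe sets was read from the brightest, by the mean of its 18 values. This gave 43 genes of the 19260 genes with a single symbol, in 7 clusters: 4 genes of hoxaa, 5 of hoxab, 11 of hoxba, 3 of hoxbb, 9 of hoxca, 4 of hoxcb and 7 of hoxda. The gene table used for names and gene order lists 49 protein-coding Hox genes. The other 6 are hoxa3a, hoxa4a, hoxa9a, hoxc9a and hoxc10a, whose only probe sets carry several symbols, and hoxb1b, which the probe-to-gene table does not list.

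The samples formed 3 groups of 6 arrays, all of lateral line primordium from embryos younger than 3 days. The control group carried the transgenes cldnb:lynGFP and cxcr4b:nls-tdTomato and received 10 µM RU486 with 0.1% DMSO. The SU5402 group had the same transgenes, RU486 and DMSO, and in addition 1 µM SU5402, which inhibits FGF receptor 1. The FGF overexpression group received RU486 and DMSO and carried, beside the same transgenes, cxcr4b:LexPR and lexOP:Fgf3-GFP. LexPR is a hormone-responsive activator that RU486 turns on, here under the promoter of a gene of the primordium, so effects of Fgf3 and of the added transgenes cannot be told apart. The isolation of the cells is not given in the sources used.

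Hox genes encode homeodomain transcription factors that set position along the head-to-tail axis. They lie in clusters whose order follows the body axis: genes of low paralog number are active further forward, those of paralog groups 9 to 13 in the posterior trunk, tail and fins. Zebrafish hold duplicated clusters, named with a second letter, so that hoxca and hoxcb both descend from 1 ancestral HoxC cluster. Hox proteins bind DNA together with cofactors of the Pbx, Meis and Pknox families. Retinoic acid and Cdx factors act upstream of many Hox genes, and Polycomb and Trithorax proteins keep the clusters silent or active. The lateral line primordium is a migrating epithelial placode that deposits sensory organs along the trunk. Of the members, hoxb8a has a known role there in zebrafish: it regulates the chemokine receptors that guide migration.

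Values are log2 signals. The median of all probe sets was 5.92 in both the control and FGF overexpression groups and 5.96 in the SU5402 group. Group means at or below that median are called dim here. In control 38 of the 43 Hox genes were above it, with 39 under SU5402 and 37 under FGF overexpression. All 13 genes of a list of primordium markers were above it in every group, with a list mean between 10.05 and 10.43 on the 18 arrays. As checks of the treatments, etv4, a target of FGF signalling, fell by 3.53 (log2) in SU5402, and fgf3 was 38.5-fold higher in FGF overexpression than in control (limma adjusted p = 1.34e-11 and 1.64e-12). Other FGF targets differed: spry4 and etv5b also fell in SU5402 (-0.82 and -1.52), but dusp6 did not pass there (0.03, adjusted p = 0.916). In FGF overexpression etv4, spry4 and dusp6 rose (1.73, 1.26 and 1.37), and etv5b did not pass (0.42, adjusted p = 0.108). In SU5402 fgf3 was also higher than in control, by 1.99 on the log2 scale. Markers of other cell types were present: in control the mean of the skeletal muscle list was 9.10, of the skin list 9.71 and of the neuron list 7.20, while 4 of 5 tailbud markers were dim. Since these are bulk RNA samples, fewer cells of a type and less RNA per cell cannot be told apart.

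The comparison of SU5402 with control asks how the members differ when FGF receptor signalling is reduced. In SU5402, 10 Hox genes rose and 3 fell, against 9.41% of all probe sets called (4.69% higher and 4.72% lower) and 14.7% of the named genes called. The risers were hoxc1a, hoxc3a, hoxc4a, hoxc5a, hoxc6a and hoxc8a of 1 cluster, with hoxd3a, hoxd4a, hoxa2b and hoxb6a. Those that fell were hoxb5b, hoxd13a and hoxb13a. The median log2 change over the 43 members was -0.005 against 0.04 for all probe sets, and 30 members did not pass the test. The groups did not overlap for 9 Hox genes that were higher and 1 that was lower, against 2.95% and 2.79% of all probe sets. A gene passed where limma's moderated two-sided test, adjusted by Benjamini-Hochberg over 75212 probe sets, gave a value under 0.05.

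The comparison of FGF overexpression with control asks the reverse. There 8 Hox genes fell and 1 rose, against 4.06% of all probe sets called (1.79% lower and 2.27% higher) and 5.89% of the named genes. The genes that fell were hoxc1a, hoxc3a, hoxc4a, hoxc5a, hoxc6a, hoxc8a and hoxd4a, together with hoxb5b, and the riser was hoxd13a. The median log2 change over the 43 members was -0.40 against 0 for all probe sets, and 38 of the 43 changes were below 0, as were 49.7% of all probe sets. For 4 of the genes that fell the groups did not overlap, against 1.42% of all probe sets that were lower without overlap; for higher without overlap there was no member, against 2.02%. Of the 9 calls 6 were lost in at least 1 alternative fit. Without replicate 2, 3 or 4 of each group the count was 3, 4 and 5, against 2.51%, 2.56% and 3.04% of all probe sets.

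FGF overexpression against SU5402 sets the higher against the lower FGF state. Here 11 Hox genes were lower and 2 higher, against 16.9% of all probe sets called (9.04% lower and 7.88% higher) and 24.4% of the named genes. The lower ones were hoxc1a, hoxc3a, hoxc4a, hoxc5a, hoxc6a, hoxc8a, hoxd3a, hoxd4a, hoxa2b, hoxb6a and hoxb5b, and the higher ones hoxd13a and hoxa13b. The groups did not overlap for 11 Hox genes that were lower and 1 that was higher, against 5.09% and 5.22% of all probe sets. The median change over the members was -0.25 against -0.03 for all probe sets, and 35 of 43 changes were below 0 against 55.5%. Each pair of the 3 comparisons shares a group of arrays, so they are not independent of each other.

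**Figure D1:**
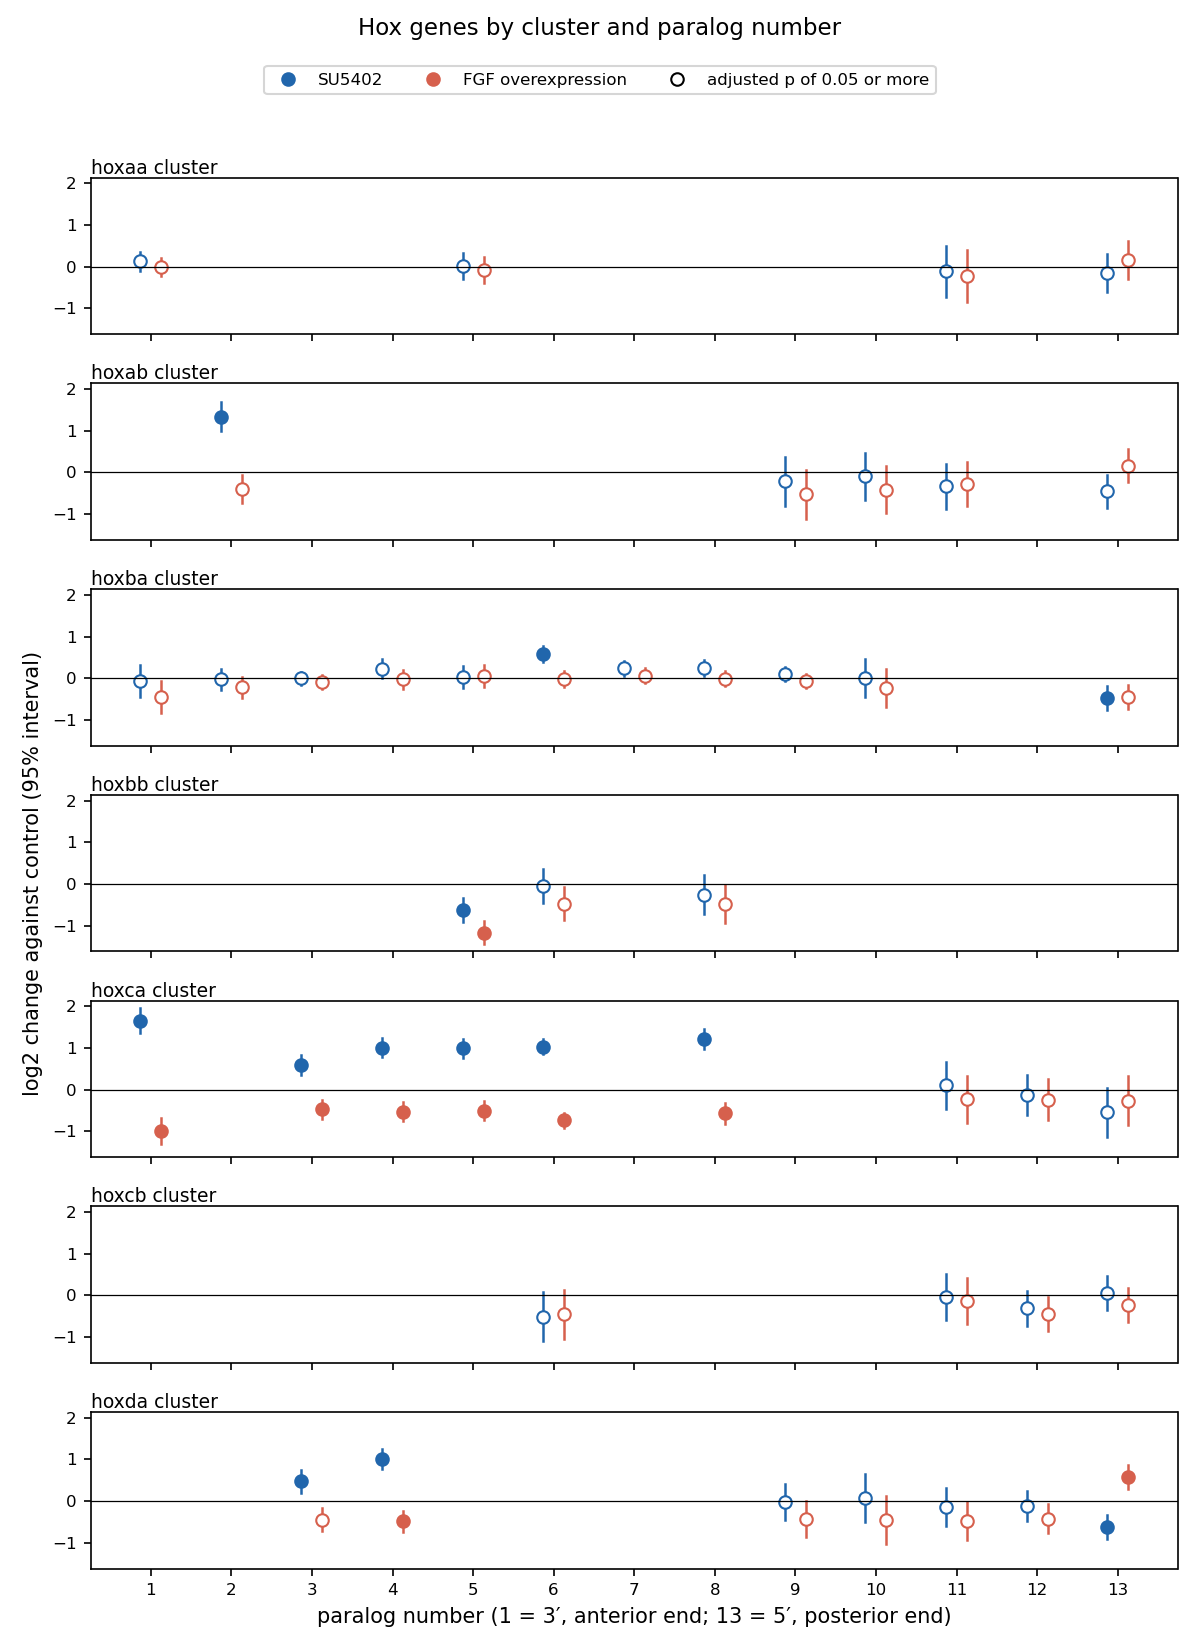
Log2 change against control of each Hox gene in SU5402 and in FGF overexpression, by cluster (panels) and paralog number (horizontal axis), with filled points for genes that passed limma's test, open points for the others and bars for 95% intervals. The 6 hoxca genes of paralogs 1 to 8 lie above 0 in SU5402 and below 0 in FGF overexpression.

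Counted by place in the cluster, 6 of 11 genes of paralogs 1 to 4 passed in SU5402 against control, 5 of 12 of paralogs 5 to 8 and 2 of 20 of paralogs 9 to 13. All 6 of the first class rose, 4 of the second rose and 1 fell, and both of the last fell. In FGF overexpression against control the counts were 4 lower, 4 lower and 1 higher. As shares of each class these were 54.5%, 41.7% and 10.0% in SU5402, against 9.41% of all probe sets, and 36.4%, 33.3% and 5.0% in FGF overexpression, against 4.06%. Of the named genes 14.7% were called in SU5402 and 5.89% in FGF overexpression. In the reported fit, without a replicate block, the posterior shares were near those of all probe sets and below those of the named genes. In FGF overexpression 17 of the 20 posterior changes were below 0 and 3 above (median -0.25). Of all probe sets 49.7% were below 0. Fitted with a block for replicate numbers, hoxa9b, hoxa10b, hoxb13a, hoxd10a and hoxd12a also passed in FGF overexpression against control. In that fit 5.25% of all probe sets were called. The measurement was less precise for the posterior class: the median SE of a log2 change was 0.12 over paralogs 1 to 8 and 0.22 over paralogs 9 to 13. The 95% intervals accordingly reached a median of 0.24 and 0.46 to either side. Class and cluster are mixed in these shares. All 6 hoxca genes of paralogs 1 to 8 were among those called in both comparisons. Of hoxba, hoxb1a, hoxb2a, hoxb3a and hoxb4a were called in neither.

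All 6 hoxca genes of low paralog number passed in all 3 comparisons. The signal of hoxc1a, the member of paralog group 1 in this cluster, ran from 7.26 to 7.77 in control with a median of 7.49. It ran from 8.98 to 9.37 in SU5402, median 9.19, and from 6.1 to 6.99 in FGF overexpression, median 6.55. No array of one group reached into another, with SU5402 highest and FGF overexpression lowest. hoxc1a was 3.16-fold higher in SU5402 than in control (log2 change 1.66, SE 0.15, limma adjusted p = 2.69e-07) and 2.0-fold lower in FGF overexpression than in control (-1.0, SE 0.15, adjusted p = 0.000272). Between the treatments it differed 6.31-fold (-2.66), the widest gap of any member.

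Further along the cluster, hoxc3a ran from 7.92 to 8.54 in control (median 8.41), from 8.82 to 9.05 in SU5402 (median 8.90) and from 7.54 to 8.15 in FGF overexpression (median 7.87). Its SU5402 arrays were all above the controls, while the FGF overexpression and control arrays overlapped. It rose by 0.59 (SE 0.11) in SU5402 and fell by 0.47 in FGF overexpression (limma adjusted p = 0.0193). This last call was lost when only the arrays of these 2 groups were fitted (adjusted p = 0.0611) and without replicates 2, 3 or 4. A second hoxc3a probe set also rose in SU5402 (0.74) and was lower in FGF overexpression than in SU5402 (-0.99), but its change of -0.25 against control did not pass (adjusted p = 0.165). In the gene table the hoxc3a model spans those of hoxc4a, hoxc5a, hoxc6a, hoxc8a and hoxc9a, and whether the hoxc3a probe sets share transcribed sequence with those genes was not tested.

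hoxc4a, whose paralog group is active from the caudal hindbrain backwards, ran from 8.64 to 9.09 in control (median 9.05), from 9.83 to 10.06 in SU5402 (median 10.01) and from 8.06 to 8.75 in FGF overexpression (median 8.43). The SU5402 arrays stood apart above both other groups, and the lowest control overlapped the highest FGF overexpression array. It was 2.01-fold higher in SU5402 (limma adjusted p = 4.13e-06) and 1.44-fold lower in FGF overexpression (adjusted p = 0.00776). hoxc5a showed the same order, from 7.57 to 7.95 in control (median 7.79), from 8.65 to 8.89 in SU5402 (median 8.74) and from 6.94 to 7.62 in FGF overexpression (median 7.17). It was 1.99-fold higher in SU5402 and 1.42-fold lower in FGF overexpression (limma adjusted p = 5.72e-06 and 0.0115). Both FGF overexpression calls missed the threshold without replicate 2 (adjusted p = 0.0542 and 0.0833) and without replicate 3 (0.0689 and 0.0794), and that of hoxc4a also without replicate 4 (0.0546).

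hoxc6a had the smallest error among the hoxca genes. It ran from 9.29 to 9.52 in control (median 9.48), from 10.32 to 10.61 in SU5402 (median 10.48) and from 8.52 to 8.90 in FGF overexpression (median 8.74), so that the 3 groups were fully separate. It rose by 1.03 (SE 0.08) in SU5402 and fell by 0.74 (SE 0.08) in FGF overexpression, a 2.05-fold and a 1.67-fold change (limma adjusted p = 8.13e-08 and 1.42e-05). Between the treatments the gap was 3.42-fold. In mouse, the paralog groups 6 and 8 of HoxC mark the level of the forelimb and thorax.

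hoxc8a ran from 9.07 to 9.59 in control (median 9.35), from 10.27 to 10.91 in SU5402 (median 10.60) and from 8.57 to 9.0 in FGF overexpression (median 8.73), again with no overlap between groups. It was 2.32-fold higher in SU5402 (limma adjusted p = 7.66e-07) and 1.48-fold lower in FGF overexpression (adjusted p = 0.00611). A second hoxc8a probe set gave log2 changes of 1.22 and -0.57 in these comparisons and -1.79 between the treatments, and passed in all 3. The FGF overexpression call of the first probe set missed the threshold without replicate 2 (adjusted p = 0.0635).

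**Figure D2:**
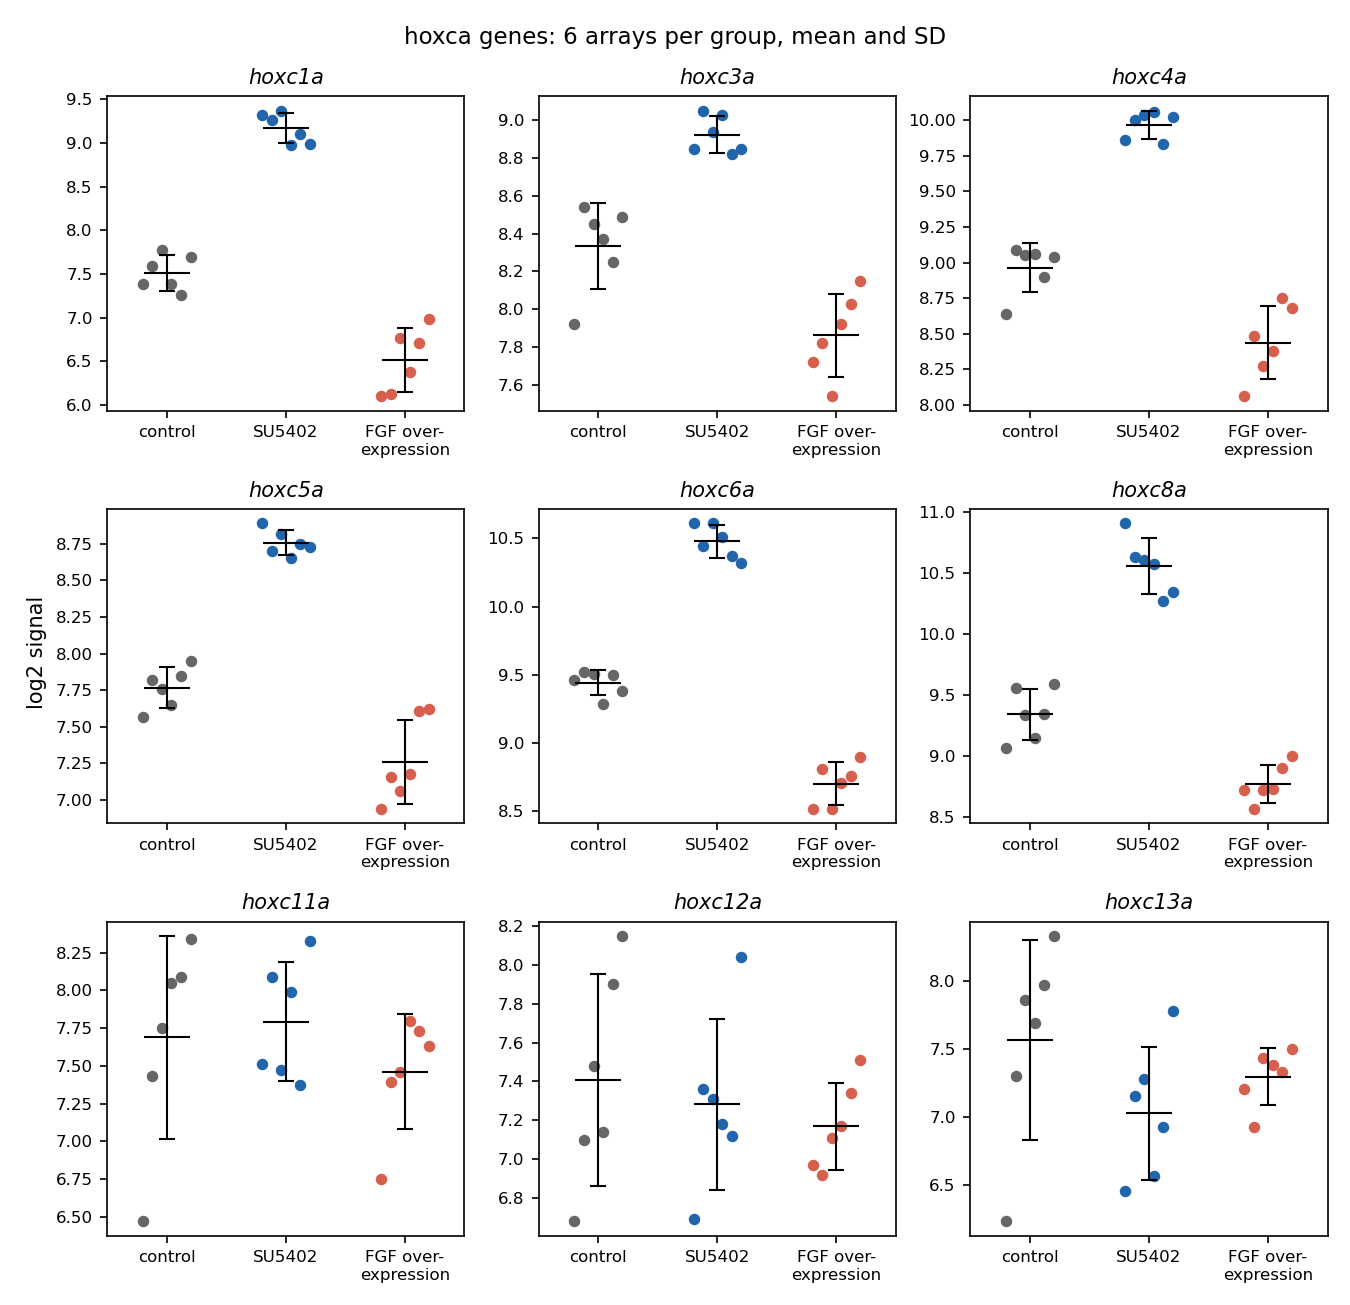
Log2 signal of the hoxca genes on each of the 18 arrays (points) with the group mean (horizontal line) and SD (bars, n = 6), by group. In hoxc1a, hoxc6a and hoxc8a the control, SU5402 and FGF overexpression arrays do not overlap, and in hoxc11a, hoxc12a and hoxc13a all 3 groups do.

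The posterior part of hoxca had no call. None of hoxc11a, hoxc12a and hoxc13a passed limma's test in any comparison, nor had an unadjusted p under 0.05. Their SU5402 changes were 0.11, -0.13 and -0.54, with 95% intervals from -0.46 to 0.67, from -0.61 to 0.36 and from -1.13 to 0.05. All 3 intervals leave out a rise as large as the 1.03 of hoxc6a, but that of hoxc11a takes in the 0.59 of hoxc3a. Differences between the genes were not tested. The hoxc12a signal ran from 6.68 to 8.15 in control, from 6.69 to 8.04 in SU5402 and from 6.92 to 7.51 in FGF overexpression. A probe set shared by hoxc10a, hoxc9a and hoxc3a, had changes of 0.07 in SU5402 (limma adjusted p = 0.855) and -0.40 in FGF overexpression (adjusted p = 0.185), and was lower by -0.48 between the treatments (adjusted p = 0.0409).

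The duplicate cluster hoxcb, represented by hoxc6b, hoxc11b, hoxc12b and hoxc13b, had no call in limma's test. At an unadjusted p under 0.05 it had 0, 1 and 0 of 4 genes in SU5402 against control, FGF overexpression against control and FGF overexpression against SU5402. hoxc6b, the duplicate of hoxc6a, ran from 6.44 to 8.47 in control, from 6.33 to 7.38 in SU5402 and from 6.32 to 7.54 in FGF overexpression. Its SU5402 change was -0.51 with a 95% interval from -1.09 to 0.07, where hoxc6a rose by 1.03. The hoxaa cluster, with hoxa1a, hoxa5a, hoxa11a and hoxa13a, likewise had no call, and 0 of 4 genes with an unadjusted p under 0.05 in each comparison. The level of hoxa1a, the paralog group 1 member there, was dim in all 3 groups.

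In hoxda the 2 genes of low paralog number rose in SU5402, and those of paralogs 9 to 12 did not pass. hoxd4a, active in the caudal hindbrain and spinal cord, ran from 8.54 to 9.12 in control (median 8.96), from 9.68 to 10.18 in SU5402 (median 9.92) and from 8.05 to 8.58 in FGF overexpression (median 8.48). The SU5402 arrays were above all others, and the highest FGF overexpression array overlapped the lowest control. hoxd4a was 2.03-fold higher in SU5402 (limma adjusted p = 5.36e-06) and 1.40-fold lower in FGF overexpression (adjusted p = 0.0176). Leaving out replicates 2 to 6 in turn moved the adjusted p of the latter to between 0.0518 and 0.0739.

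hoxd3a, whose gene model overlaps that of hoxd4a, ran from 6.97 to 7.86 in control (median 7.65), from 7.80 to 8.18 in SU5402 (median 8.01) and from 6.79 to 7.28 in FGF overexpression (median 7.09). Its SU5402 arrays overlapped the controls at the edge and were clear of FGF overexpression. The rise of 0.48 in SU5402 passed (limma adjusted p = 0.0263), the change of -0.44 in FGF overexpression did not (adjusted p = 0.0716), and the gap of -0.92 between the treatments did (adjusted p = 4.85e-05). A dimmer second probe set of hoxd3a gave -0.15 in SU5402 (adjusted p = 0.841), the opposite sign, and its gap of -0.73 between the treatments did not pass (adjusted p = 0.0844). The SU5402 call was also lost without replicates 1, 2 or 4 (adjusted p = 0.0606, 0.0632 and 0.139), with equal array medians (0.0531) and with only these 2 groups fitted (0.0556).

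hoxd13a, which acts in zebrafish fin development, had the reverse order of groups. It ran from 6.70 to 7.20 in control (median 7.07), from 6.09 to 6.69 in SU5402 (median 6.34) and from 7.08 to 7.87 in FGF overexpression (median 7.60). The SU5402 arrays were all below the controls, and FGF overexpression overlapped the controls at its low end. hoxd13a was 1.54-fold lower in SU5402 (limma adjusted p = 0.00481), 1.5-fold higher in FGF overexpression (adjusted p = 0.0169) and 2.31-fold higher in FGF overexpression than in SU5402 (log2 change 1.21, adjusted p = 2.69e-06). The rise in FGF overexpression was lost without replicates 2, 3 or 4 (adjusted p = 0.116, 0.0623 and 0.0629). Of 7 markers of the pectoral fin bud, 2 fell in SU5402 (28.6%, against 14.7% of the named genes). In FGF overexpression 1 rose (14.3% against 5.89%). The 2 that fell were and1 and and2, actinodin genes of the fin fold (-1.11 and -1.49). In FGF overexpression and2 rose by 0.94 and and1 had a change of 0.63 (limma adjusted p = 0.231), while the other 5 markers were below 0 and the list median was -0.06. The list mean ran from 6.57 to 7.82 in control, from 6.58 to 7.26 in SU5402 and from 7.25 to 7.65 in FGF overexpression, and tbx5a and hand2, factors that define the bud, were dim in every group. The part of such cells in the hoxd13a values was not tested.

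Among the other clusters, hoxa2b of hoxab, which gives the second pharyngeal arch its identity, ran from 4.90 to 5.95 in control (median 5.74), from 6.61 to 7.22 in SU5402 (median 7.01) and from 4.98 to 5.58 in FGF overexpression (median 5.20). The SU5402 arrays were all above the rest, and control and FGF overexpression overlapped at a dim level. It rose by 1.34 on the log2 scale in SU5402 (SE 0.16, limma adjusted p = 1.35e-05), and with the control mean dim this is a rise of at least 2.53-fold. Its change of -0.40 in FGF overexpression did not pass (adjusted p = 0.214). Between the treatments it was lower by -1.74, at least 3.34-fold.

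hoxb6a was the only one of 11 hoxba genes to pass the test as higher in SU5402. It ran from 9.47 to 9.85 in control (median 9.58), from 10.04 to 10.45 in SU5402 (median 10.12) and from 9.31 to 9.73 in FGF overexpression (median 9.61). The SU5402 arrays were separate from both other groups, which overlapped each other. It was 1.49-fold higher in SU5402 (limma adjusted p = 0.000256), and its change in FGF overexpression was -0.03 with an adjusted p of 0.926. Its call in SU5402 held in every alternative fit. In the gene table the hoxb6a model lies within that of hoxb3a, which did not pass in any comparison.

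hoxb5b of hoxbb, a gene downstream of retinoic acid that limits heart progenitor number in zebrafish, was lower in both treatments. It ran from 9.16 to 9.97 in control (median 9.72), from 8.62 to 9.20 in SU5402 (median 9.08) and from 8.30 to 8.60 in FGF overexpression (median 8.49). FGF overexpression lay below both other groups, and SU5402 met the lowest control. hoxb5b fell by 0.63 in SU5402 (SE 0.13, limma adjusted p = 0.00393) and by 1.17 in FGF overexpression (SE 0.13, adjusted p = 1.75e-05), 1.55-fold and 2.25-fold. Its duplicate hoxb5a had changes of 0.03 and 0.05, with 95% intervals from -0.23 to 0.29 and from -0.21 to 0.31.

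The remaining calls were of dim genes. hoxb13a ran from 4.06 to 4.90 in control (median 4.62), from 3.89 to 4.34 in SU5402 and from 3.96 to 4.56 in FGF overexpression. Every array lay below the median of all probe sets, so no fold is given. Its change of -0.48 in SU5402 passed (limma adjusted p = 0.0292) but not without replicate 2, 3, 4 or 5 (adjusted p between 0.0650 and 0.159). hoxa13b, a gene of the distal fin, ran from 5.19 to 6.03 in control, from 4.29 to 5.45 in SU5402 and from 5.13 to 5.98 in FGF overexpression, with overlap throughout. It was higher by 0.62 in FGF overexpression than in SU5402 (adjusted p = 0.0289), a call lost without replicates 1, 3, 4 or 5 (adjusted p between 0.0532 and 0.0928).

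**Figure D3:**
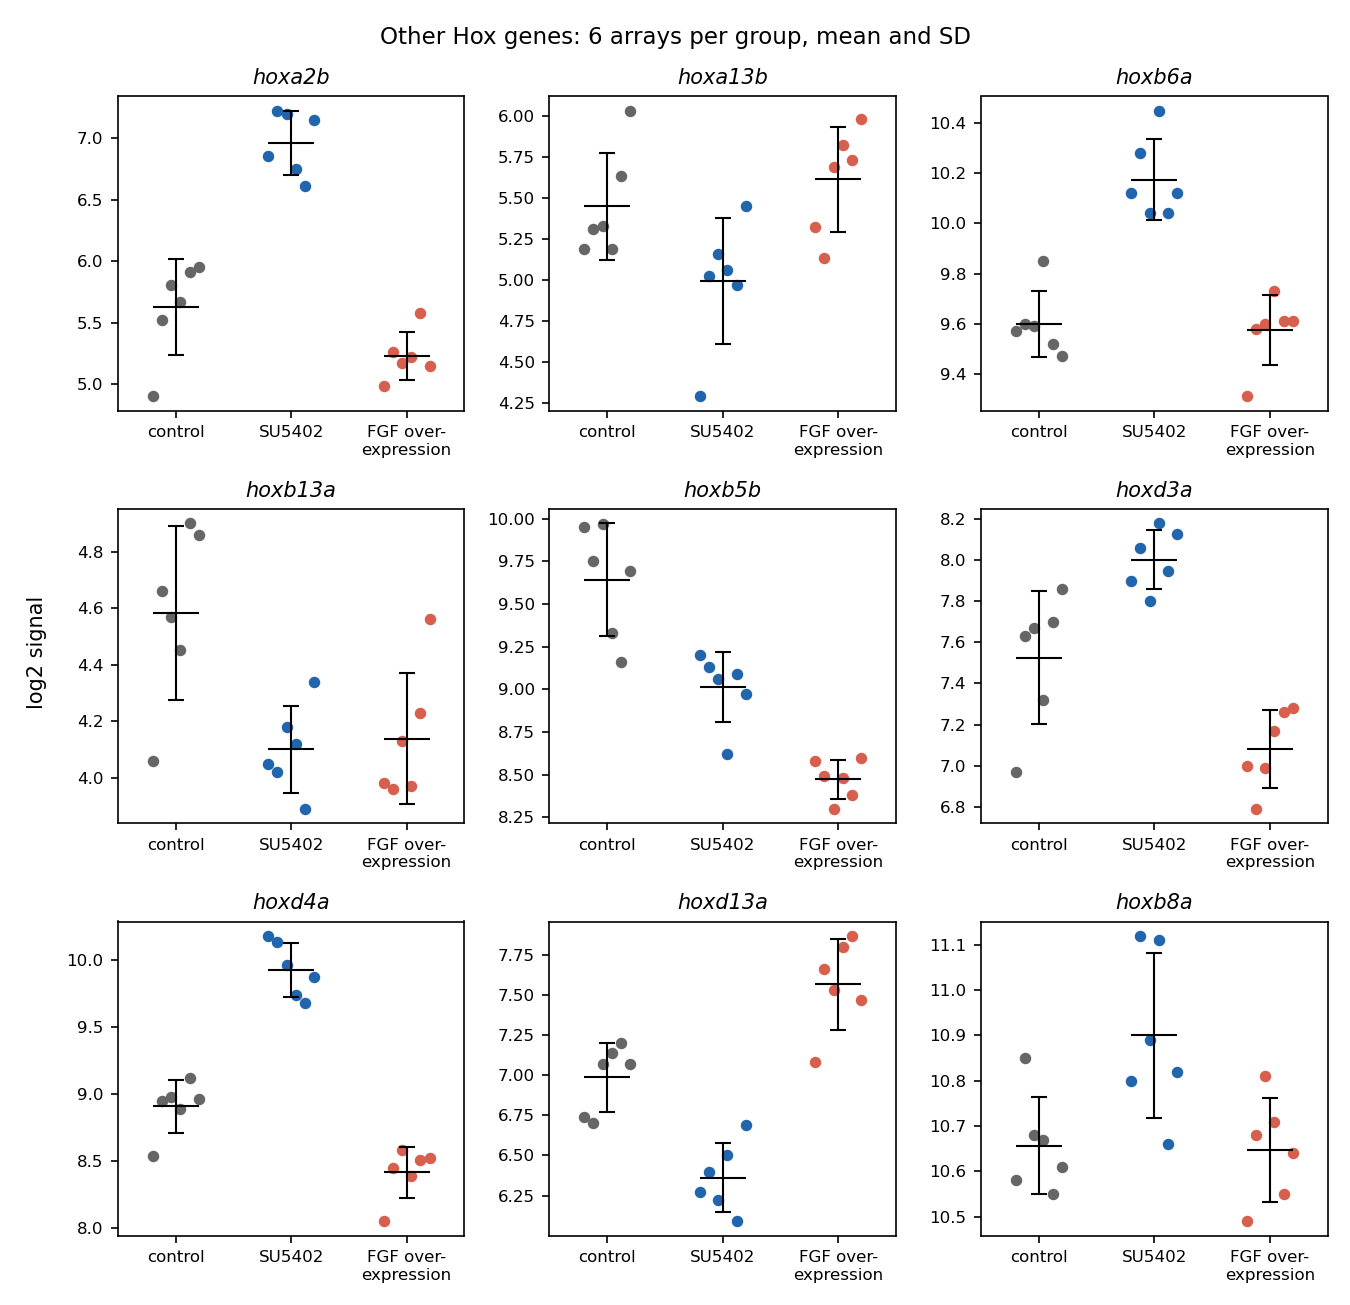
Log2 signal on each array (points) with group mean (horizontal line) and SD (bars, n = 6). Shown are the called Hox genes outside hoxca, and hoxb8a, which passed in no comparison of the reported fit. hoxd4a and hoxa2b are highest in SU5402, hoxd13a is lowest there, and hoxb5b is highest in control.

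The other 9 hoxba genes, hoxb1a, hoxb2a, hoxb3a, hoxb4a, hoxb5a, hoxb7a, hoxb8a, hoxb9a and hoxb10a, did not pass in any comparison by limma. At an unadjusted p under 0.05, 2 of the 9 were found in SU5402 against control, 1 in FGF overexpression against control and 2 between the treatments. Most were well above the dim level and were measured closely. hoxb8a ran from 10.55 to 10.85 in control (median 10.64), from 10.66 to 11.12 in SU5402 (median 10.86) and from 10.49 to 10.81 in FGF overexpression (median 10.66), and all 3 groups overlapped. Its changes were 0.24 in SU5402 (95% interval from 0.06 to 0.43, adjusted p = 0.102) and -0.01 in FGF overexpression (from -0.20 to 0.18). Between the treatments it differed by -0.25 (adjusted p = 0.0580). That difference passed with a block for the replicate numbers, with a filter on dim probe sets and with a trended and robust variance. With the replicate block the SU5402 change of hoxb8a against control passed too. hoxb3a, a hindbrain gene, had an interval from -0.17 to 0.16 in SU5402 and from -0.25 to 0.07 in FGF overexpression. hoxb4a had -0.01 to 0.45 and -0.26 to 0.20, and hoxb9a -0.08 to 0.27 and -0.24 to 0.11. The SU5402 change of hoxb7a was 0.24 (95% interval from 0.06 to 0.42, limma adjusted p = 0.0955), and it passed with the filter on dim probe sets.

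In the fit of all arrays without a block, 29 members passed in no comparison. Beyond those named, they were hoxa9b, hoxa10b and hoxa11b of hoxab, hoxb6b and hoxb8b of hoxbb, and hoxd9a, hoxd10a, hoxd11a and hoxd12a of hoxda. All 3 hoxbb genes, with hoxb5b, had changes below 0 and an unadjusted p under 0.05 in FGF overexpression against control. For hoxb6b and hoxb8b these changes were -0.475 and -0.49. In SU5402 against control 1 of the 3 had an unadjusted p under 0.05. Over hoxda paralogs 9 to 12, the FGF overexpression changes were -0.43, -0.46, -0.47 and -0.42, and 2 of the 4 had an unadjusted p under 0.05 against control, with none in SU5402 against control. The hoxd10a signal ran from 6.64 to 8.20 in control, from 7.06 to 8.43 in SU5402 and from 6.34 to 7.83 in FGF overexpression. Its 95% interval for FGF overexpression against control ran from -1.04 to 0.11, and a second probe set gave -0.46.

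The posterior genes varied together among arrays of 1 group. The median SD of paralogs 9 to 13 was 0.52 in the control group, 0.36 under SU5402 and 0.33 under FGF overexpression. In the same order it was 0.21, 0.17 and 0.20 for paralogs 1 to 8 and 0.23, 0.23 and 0.21 for all probe sets. Control replicate 1 was the lowest control for 18 of the 20 posterior genes, and replicate 1 was the lowest for 11 in SU5402 and 14 in FGF overexpression. Over all 43 members, replicate 1 was the lowest in 69.8%, 39.5% and 53.5%, against 19.1%, 18.6% and 21.3% of all probe sets. Replicate 6 was the highest for 21, 21 and 22 of the 43 members, and the share over all probe sets was not computed for it.

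Marker lists of other cell types were read on the same arrays. In control replicate 1 the mean of the posterior Hox genes was 0.91 below that of the other controls (a difference of -0.91), and the difference was -0.96 for the fin bud list, -0.76 for skin, -0.62 for muscle, -0.56 for neurons, -0.54 for erythroid cells, -0.46 for pronephros, -0.28 for endothelium, -0.19 for neural crest and pigment and -0.09 for tailbud. It was -0.30 for the Hox genes of paralogs 1 to 8 and 0.13 for the primordium list. In SU5402 replicate 1 the posterior Hox difference was -0.41, with -0.45 for muscle, -0.43 for neurons, -0.39 for skin, -0.33 for the fin bud, -0.32 for neural crest, -0.22 for pronephros, -0.10 for tailbud, -0.09 for endothelium and 0.02 for erythroid cells. In FGF overexpression replicate 1 it was -0.57, with -0.66 for pronephros, -0.40 for muscle, -0.34 for neural crest, -0.29 for erythroid cells, -0.27 for skin, -0.22 for the fin bud, -0.12 for endothelium, 0.005 for neurons and 0.06 for tailbud. The muscle, skin, fin bud, pronephros, neural crest and endothelium lists were thus lower in replicate 1 of every group. The neuron, erythroid and tailbud lists were not lower in every group. The part of other cells in these values was not tested.

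**Figure D4:**
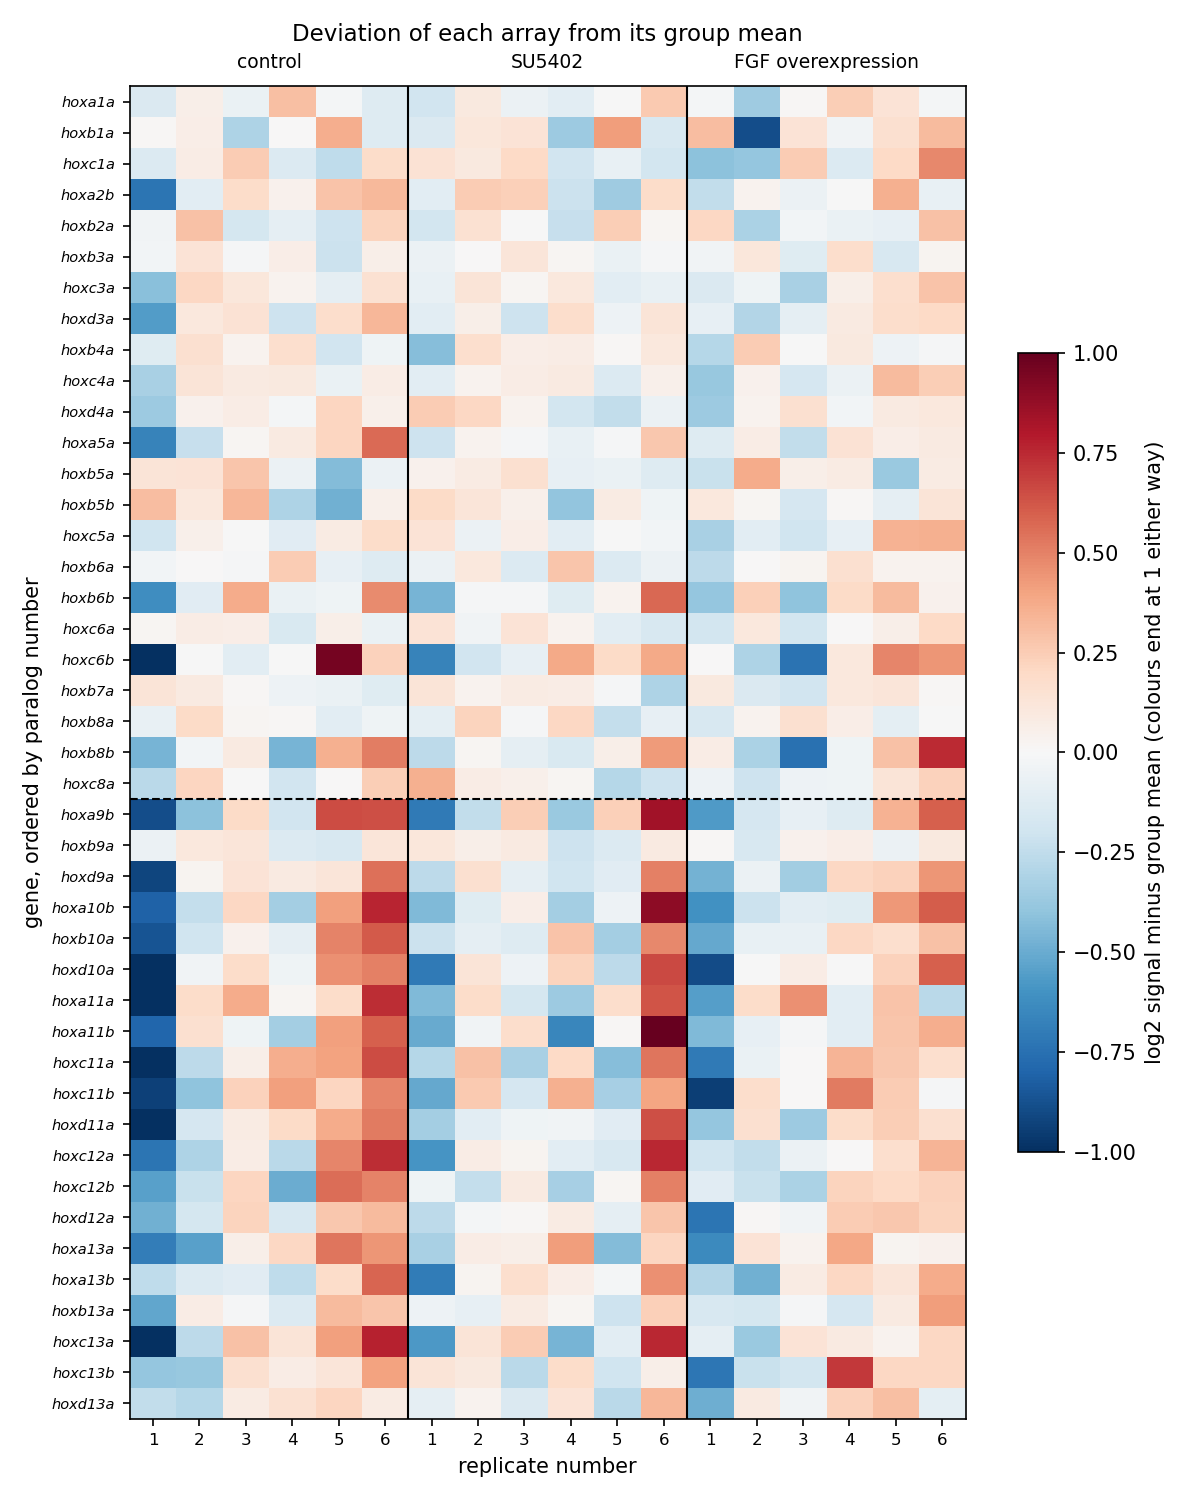
Deviation of each Hox gene on each array from its group mean (log2), ordered by paralog number, with a dashed line between paralogs 8 and 9. The posterior genes are low together in replicate 1, most of all in control, and high in replicate 6, more so in control and SU5402 than in FGF overexpression.

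Genes that act with or on the Hox clusters were read from lists. Of 11 TALE cofactors, 1 rose and 3 fell in SU5402 and 4 fell in FGF overexpression, and between the treatments 1 was higher and 3 lower in FGF overexpression. That was 36.4% of the list in each comparison, against 14.7%, 5.89% and 24.4% of the named genes. meis3 rose by 0.95 in SU5402 and was lower by -1.34 in FGF overexpression than in SU5402. pbx3b fell in both (-0.70 and -0.53), as did pknox2 (-0.60 and -0.60), and meis2a fell in FGF overexpression (-0.75). The median log2 change of the list was -0.10 in SU5402 and -0.39 in FGF overexpression, against 0.04 and 0 for all probe sets.

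Of 18 upstream regulators, 2 rose and 2 fell in SU5402 (22.2%, against 14.7% of the named genes), and 1 rose and 2 fell in FGF overexpression (16.7% against 5.89%). Between the treatments 4 were higher and 3 lower in FGF overexpression (38.9% against 24.4%). cyp26a1, which degrades retinoic acid, rose by 0.57 in SU5402 and fell by 1.87 in FGF overexpression. Of its relatives, cyp26c1 fell by 1.81 in SU5402, and cyp26b1 passed as higher in FGF overexpression at dim means in both groups. raraa, a retinoic acid receptor gene, fell by 0.84 in FGF overexpression. cdx1a, a caudal-type activator of Hox genes, rose by 0.39 in SU5402. The list medians were -0.15 and -0.22.

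Of 19 Polycomb genes, 4 rose and 2 fell in SU5402 (31.6%, against 14.7% of the named genes), and 1 rose and 2 fell in FGF overexpression (15.8% against 5.89%). Between the treatments 2 were higher and 5 lower in FGF overexpression (36.8% against 24.4%). phc2a, a component of Polycomb repressive complex 1, rose by 0.83 in SU5402 and fell by 0.55 in FGF overexpression. rbbp4, a histone-binding subunit of complex 2, fell by 0.74 in SU5402, and jarid2b, an associated protein, rose by 0.62. pcgf5a fell by at least 1.37 (log2) in FGF overexpression, where its mean was dim. Of 11 Trithorax and demethylase genes none passed in SU5402, with none at an unadjusted p under 0.05, and 1 rose in FGF overexpression (kdm6bb, an H3K27 demethylase, 0.45). The medians of the Polycomb list were 0.17 and -0.04, and those of the Trithorax list -0.07 and 0.01.

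Genes that flank the clusters were taken as the 2 nearest with a probe set on each side, 28 in all. Of these 1 rose and 1 fell in SU5402 (7.14%, against 9.41% of all probe sets and 14.7% of the named genes). In FGF overexpression 1 fell (3.57%, against 4.06% and 5.89%). It was skap1, next to hoxbb, at dim means in both groups (log2 change -0.75, limma adjusted p = 0.00300). Between the treatments 2 were higher and 5 lower in FGF overexpression (25.0%, against 16.9% and 24.4%). Beside hoxca lie calcoco1a and nr1d4a at the posterior end and cbx5 and nfe2 at the anterior end. None of these 4 passed limma's test in either treatment against control (1 and 0 at an unadjusted p under 0.05), and calcoco1a was lower by -0.34 in FGF overexpression than in SU5402. The rise of nfe2l1a (0.53), next to hoxba, and the fall of nfe2l2a (-0.79), next to hoxda, were the calls in SU5402.

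Markers of other cell types were counted in the same comparisons. Of the named genes 14.7% were called in SU5402 and 5.89% in FGF overexpression. In SU5402 none of 14 neuron markers rose and 3 fell, and none of 5 tailbud markers passed (none at an unadjusted p under 0.05). The neuron list mean ran from 6.73 to 7.49 in control, from 6.63 to 7.46 in SU5402 and from 7.0 to 7.27 in FGF overexpression. Of 10 muscle markers 1 fell in SU5402, of 6 pronephros markers none passed (1 at an unadjusted p under 0.05), and of 7 neural crest and pigment markers none passed (1 at that level). Skin fell for 5 of 10 markers and endothelium for 5 of 6, and 2 of 4 erythroid markers rose. In FGF overexpression 1 neuron marker fell, 1 neural crest marker rose, and 1 endothelial marker rose and 1 fell, and no muscle, tailbud, pronephros, skin or erythroid marker passed (1, 1, 0, 3 and 0 at an unadjusted p under 0.05). Of the 13 primordium markers 3 rose and 2 fell in SU5402, and 1 rose and 2 fell in FGF overexpression. Between the treatments 24.4% of the named genes were called. There 6 skin, 2 neural crest and 1 endothelial marker were higher in FGF overexpression. No muscle, tailbud, pronephros or erythroid marker passed (1, 0, 2 and 2 at an unadjusted p under 0.05). Of the neuron markers 4 were higher and 2 lower, and of the primordium markers 3 were higher and 3 lower. lef1, the Wnt effector of the leading zone of the primordium, rose by 1.52 in SU5402 and fell by 1.39 in FGF overexpression, and whether the hoxca genes vary with it was not tested.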

How the data were processed

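RNA of 18 lateral line primordium samples, 6 per group, was hybridised to Affymetrix zebrafish gene arrays. The labels call the arrays biological replicates. The deposited values are log2 signals. The submitters' processing notes name Affymetrix Power Tools and RMA. No further scaling and no filter was applied. RNA was purified with RNeasy Plus Mini and 500 ng was labelled with the Ambion WT Expression Kit, per the labels' protocols. The array's build is not given in the sources used, so no coordinates are printed. Gene order and neighbours came from a RefSeq table of assembly GRCz12tu, which held all 43 symbols.

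The comparisons were contrasts in limma 3.58.1 under R 4.3.3, from 1 fit that held every array, with Benjamini-Hochberg adjustment over 75212 probe sets and a threshold of 0.05 with no minimum fold. The fit was tested on simulated data. SE and 95% intervals are those of the fit, and the number of arrays limits their precision. Where the lower of the means was dim (at or below its group's median signal), a fold is a lower bound, and none is given for a pair of dim means. Levels of different probe sets are not compared. Of 156 symbols on 14 gene lists, 141 were found, 2 through another symbol.

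Values are given for every Hox gene that passed in any comparison, for hoxb8a and for examples of the rest, chosen after their values were seen. List members are named by smallest p among those that passed, with lef1, and1 and and2 among them; fgf3, etv4, etv5b, spry4 and dusp6 were read as treatment checks. The members, lists and tests were chosen with earlier results of these data known. Alternatives were other normalizations, variance models, filters, array weights, other probe sets, only 2 groups, a replicate block and leaving out each replicate number.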

Additional observations from a re-analysis of the deposited data

Results flagged for a closer look

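In 13 of the 129 groups of 6 arrays tested (43 genes in 3 groups), 1 array lay far from the nearest of the others compared with the whole range of the group (Dixon's test at the 95% level), and chance flags about 1 in 20. In 9 of the 13 the array was replicate 1, as the lowest. In control these were hoxa11a at 4.86 (next 6.38), hoxd9a at 7.20 (next 8.15) and hoxd10a at 6.64 (next 7.65). In FGF overexpression they were hoxa13a at 5.65 (next 6.31), hoxb6a at 9.31 (next 9.58), hoxc11b at 7.40 (next 8.33), hoxd4a at 8.05 (next 8.39) and hoxd12a at 5.18 (next 5.87), and in SU5402 hoxb4a at 9.64 (next 10.08).

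The other 4 were hoxb6a in control replicate 4 at 9.85 (next 9.60), hoxb7a in SU5402 replicate 6 at 8.09 (next 8.39), hoxd11a in SU5402 replicate 6 at 7.88 (next 7.20) and hoxb1a in FGF overexpression replicate 2 at 5.11 (next 5.96). Of the genes concerned, hoxb6a and hoxd4a passed in a comparison. The SU5402 rises of both remained past the threshold in every alternative, including those without replicate 1 or 4. The flagged hoxd4a array belongs to FGF overexpression, so it does not enter the means behind that rise. The fall of hoxd4a in FGF overexpression against control does use it. That call held without replicate 1 but was lost without replicate 2, 3, 4, 5 or 6.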

How the results depend on the processing

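Of 35 calls of a Hox gene in a comparison, 25 kept their direction and side of the threshold in every alternative: 11 of 13 in SU5402 against control, 3 of 9 in FGF overexpression against control (hoxb5b, hoxc1a and hoxc6a) and 11 of 13 between the treatments. Over 633 results of the 14 genes called somewhere, 589 kept both, 34 lost and 9 gained a call and 1 reversed, the second hoxd3a probe set in SU5402 at -0.15. Leaving out each replicate number moved the Hox count in FGF overexpression against control between 3 and 11 and the count of all probe sets between 1887 and 2525; fewer arrays were fitted there. The Hox genes called ranged from 11 to 13 in SU5402 against control and from 12 to 13 between the treatments. Over all probe sets the counts ranged there from 4798 to 6454 and from 9918 to 11375.

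Same-numbered arrays correlated between 0.01 and 0.23 in their deviations, over 0.1 in 8 of 18 pairs. In 10 of the 18 pairs the own number was the best match among the 6 arrays of the other group. Numbers without meaning would give this in about 1 pair of 6. The labels do not say that the numbers pair the groups, so the reported fit had no block for them. These matches, and the low replicate 1 and high replicate 6 seen in all 3 groups, were only described. Whether same-numbered arrays share a source of variation was not tested. With a replicate block the Hox count was 15 in each treatment against control and 18 between them. The shares of all probe sets called were then 11.2%, 5.25% and 19%, against 9.41%, 4.06% and 16.9% without it. The Hox count in FGF overexpression against control rose from 9 to 15, with 14 lower and 1 higher, and the cause was not tested. Of the 29 members with no call, 7 passed in some comparison with the block: hoxa9b, hoxa10b, hoxb4a, hoxb8a, hoxd9a, hoxd10a and hoxd12a. Of these, hoxa9b, hoxa10b, hoxd10a and hoxd12a passed in FGF overexpression against control. Another alternative called 3 of the 29, which were hoxb7a and, again, hoxb4a and hoxb8a. With equal array medians, 2765 probe sets were higher and 4022 lower in SU5402 (3526 and 3548 as reported). Between the treatments 6946 were higher and 5366 lower in FGF overexpression (5929 and 6802 as reported). The Hox counts were then 12, 9 and 13, against 9.02%, 3.92% and 16.4% of all probe sets. With quantile normalization 6609 probe sets were higher and 6033 lower between the treatments. The filter on dim probe sets left no value for hoxa13b and hoxb13a.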
